A study of Homo sapiens with 45 samples.

Results

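UCA1 and 9 other long noncoding RNAs were followed in HCT116 cells, a human colon cancer line, after siRNA against HNRNPK. The 10 RNAs are UCA1, MALAT1, NEAT1, CCAT1, PVT1, TUG1, OIP5-AS1, CYTOR, MIR22HG and LINC-PINT, found by symbol among 28278 gene names. They were chosen by name, as long noncoding RNAs of colon cancer cells or of nuclear retention, with their counts and their knockdown differences in these libraries already known. Their values in the knockdown comparison are therefore a description, and where their calls in it are counted nothing is read from the count.

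All groups were HCT116 cells reverse-transfected with siRNA at 25 nM and collected after 72 hours. The control group, siNTC5, received a nontargeting siRNA and has 4 RNA libraries, and the siHNRNPK group received siRNA against HNRNPK and has 4. In both groups replicates 1 and 2 were made with the TruSeq stranded mRNA kit and replicates 3 and 4 with the Stranded mRNA Ligation kit. The Scramble group, also nontargeting, has 2 libraries made with TruSeq from RNA purified with the Qiagen RNeasy kit, whereas the Maxwell RSC kit served the other libraries. Nothing in the labels says that replicates came from separate cultures, so tests measure the spread between libraries, which may be technical. The series also holds 35 chromatin immunoprecipitation (ChIP) and input samples, used here as 7 lists of called domains with no replicates.

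The HNRNPK protein, heterogeneous nuclear ribonucleoprotein K, binds C-rich single-stranded DNA and RNA. It has known roles in keeping some long noncoding RNAs in the nucleus. It is also one of the proteins of paraspeckles, nuclear bodies built on the NEAT1 RNA, where it favours the long NEAT1 isoform over the short polyadenylated one. MALAT1 is a nuclear RNA of splicing speckles whose end is cut by RNase P and closed by a triple helix in place of a poly(A) tail. The mRNA kits select polyadenylated RNA, and the counts are per gene, so neither isoforms nor the place of an RNA in the cell were measured.

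Total counts were 12107280 to 23633851 in the 8 libraries of the knockdown comparison and 55007171 and 59209169 in the Scramble libraries. HNRNPK itself stood at 884 ± 78.0 CPM (counts scaled per total of the library and normalised by the TMM method; SD, n = 4) in siNTC5 and at 199 ± 45.3 CPM (SD, n = 4) in siHNRNPK. It was lower in every knockdown library, and a two-sided exact permutation test gave p = 0.0286, the smallest that 4 against 4 allow. Of 12 colon epithelial markers, 7 were at 10 CPM or more in all 8 libraries, and LGALS4, VIL1 and CDX1 were under 1 CPM in all of them. Of the fibroblast markers 5 of 6 were under 1 CPM, as were 5 of 5 immune and 3 of 3 hepatocyte markers and 2 of 3 endothelial ones. The summed colon epithelial level was 2855 to 3338 CPM in siNTC5 and 4544 to 5642 CPM in siHNRNPK. The summed fibroblast level, nearly all of it COL1A1, was 44.6 to 73.3 and 75.4 to 122 CPM. The part of either in the results below was not tested.

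Promoter windows from the RefSeq table of GRCh38.p14 are shown for MALAT1, OIP5-AS1 and TUG1, picked because their levels differed in the knockdown, and the motif counts of the windows not shown follow. Each runs from 250 bases before to 50 bases after an annotated start, on the plus strand. Capitals mark CCCTCCC, the CT element known to be bound by HNRNPK, and CCAAT, a common promoter box, each where it or its reverse complement occurs. These motifs do not overlap each other.
MALAT1, chr11:65497488-65497787: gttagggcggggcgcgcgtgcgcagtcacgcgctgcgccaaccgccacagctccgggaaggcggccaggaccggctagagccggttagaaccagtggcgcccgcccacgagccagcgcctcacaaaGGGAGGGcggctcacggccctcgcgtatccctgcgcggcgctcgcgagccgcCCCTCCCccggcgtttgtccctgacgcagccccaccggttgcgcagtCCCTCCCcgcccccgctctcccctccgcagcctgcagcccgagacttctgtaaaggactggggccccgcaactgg
OIP5-AS1, chr15:41283740-41284039: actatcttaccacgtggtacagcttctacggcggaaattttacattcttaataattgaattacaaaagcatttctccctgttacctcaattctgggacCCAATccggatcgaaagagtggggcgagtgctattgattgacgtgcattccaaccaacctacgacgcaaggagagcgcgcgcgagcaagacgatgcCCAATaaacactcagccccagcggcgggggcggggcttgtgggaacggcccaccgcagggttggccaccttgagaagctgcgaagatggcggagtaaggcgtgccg
TUG1, chr22:30969015-30969314: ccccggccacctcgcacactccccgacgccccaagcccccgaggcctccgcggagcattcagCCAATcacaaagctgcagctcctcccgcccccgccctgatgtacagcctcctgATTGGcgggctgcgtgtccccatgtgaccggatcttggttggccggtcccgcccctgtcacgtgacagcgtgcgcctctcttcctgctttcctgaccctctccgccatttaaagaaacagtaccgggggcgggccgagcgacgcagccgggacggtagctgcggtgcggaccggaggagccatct

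The MALAT1 window holds 3 CCCTCCC matches and no CCAAT, and its GC content is 73.7%. The TUG1 and OIP5-AS1 windows hold no CCCTCCC and 2 CCAAT each. The OIP5-AS1 window lies wholly inside the gene span, which begins at chr15:41282697, so its annotated start is an internal one. Of the 35116 promoter windows of this length in the RefSeq table, 26.6% hold at least 1 CCCTCCC and 34.6% at least 1 CCAAT on either strand. A second annotated MALAT1 start, chr11:65498795-65499094, holds neither motif. LINC-PINT, whose level overlapped between the groups, has 4 windows, 2 of which overlap and share a match, with 2, 1, 1 and 0 CCCTCCC matches, and the windows of CYTOR and MIR22HG hold none. A match is a description of the letters and not a measured binding site. The table gave promoters for 6 of the 10 RNAs.

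The plot of values by library shows the 9 RNAs that could be measured in the 8-library table beside HNRNPK.

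**Figure D1:**
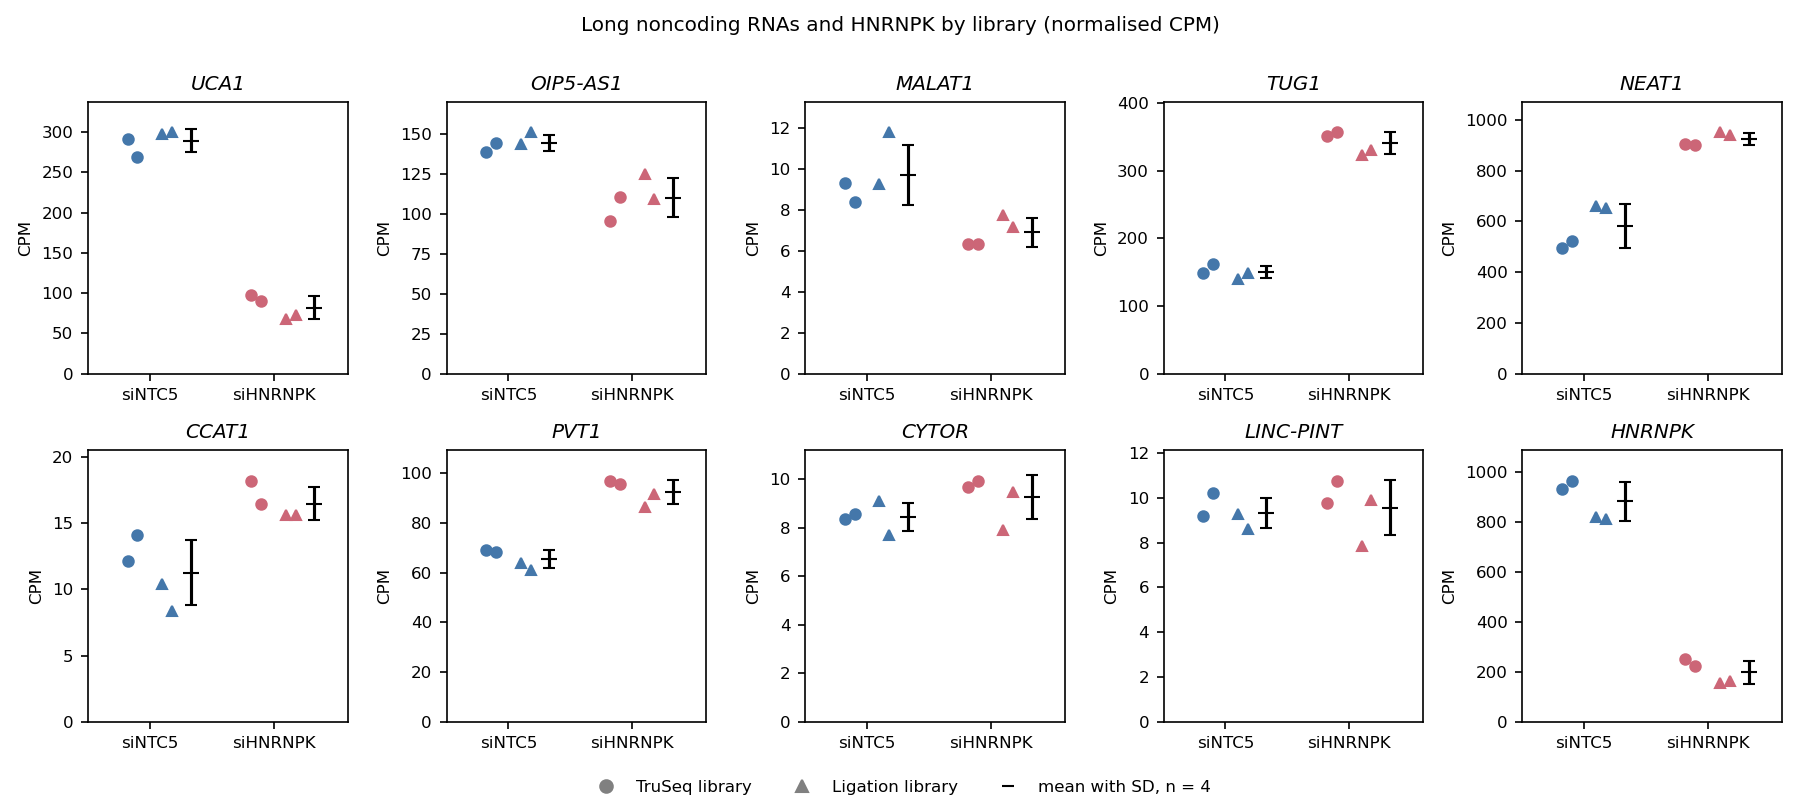
Normalised CPM (vertical axes, from 0) of 9 long noncoding RNAs and HNRNPK in each siNTC5 (blue) and siHNRNPK (red) library, with TruSeq libraries as circles, Ligation libraries as triangles, and the mean with SD (n = 4) in black. The groups separate for UCA1, OIP5-AS1, MALAT1, TUG1, NEAT1, CCAT1, PVT1 and HNRNPK and overlap for CYTOR and LINC-PINT.

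UCA1 was the RNA of this group that was lowest against control after the knockdown. UCA1, first described in bladder cancer, is a mainly cytoplasmic RNA often raised in tumours. Its RefSeq gene spans chr19:15828947-15836321 in GRCh38.p14 and is annotated as a long noncoding RNA. UCA1 stood at 291, 269, 297 and 299 CPM in siNTC5 replicates 1 to 4. In siHNRNPK replicates 1 to 4 it stood at 97.3, 90.2, 67.9 and 73.0 CPM. Every knockdown library was below every control, and the Ligation libraries, replicates 3 and 4, were the lowest of the knockdown. The mean went from 289 ± 14.2 to 82.1 ± 13.9 CPM (SD, n = 4 each), or 28.4% of control. The log2 fold change was -1.82 ± 0.08 (SE) in edgeR's quasi-likelihood fit with library kit in the model. Of all 13933 tested genes UCA1 was the 219th from the lowest fold change, and among 720 tested RefSeq long noncoding RNAs it was the 18th. The raw counts behind these values were 806 to 6431.

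MALAT1 was lower as well, by a smaller amount. It spans chr11:65497738-65506516, where its gene overlaps TALAM1, its antisense RNA, and MASCRNA, the small RNA cut from its end. MALAT1 stood at 9.31, 8.35, 9.26 and 11.8 CPM in the controls and at 6.33, 6.31, 7.76 and 7.17 CPM in the knockdown. The groups did not overlap, but the highest knockdown library was close to the lowest control. Means were 9.67 ± 1.46 and 6.89 ± 0.70 CPM (SD, n = 4 each), and the log2 fold change was -0.49 ± 0.12 (SE). MALAT1 had only 85 to 215 raw counts per library here. TALAM1 was not tested, with at most 5 counts in any of the 8 libraries, and MASCRNA had none.

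OIP5-AS1, also called cyrano, is a conserved RNA known to drive the decay of the microRNA miR-7. Its gene spans chr15:41282697-41313338 and overlaps the protein-coding gene OIP5. OIP5-AS1 stood at 138, 144, 143 and 151 CPM in the controls and at 95.1, 110, 125 and 109 CPM in the knockdown. All knockdown libraries were lower, with replicate 3 the highest of them. Means were 144 ± 5.15 and 110 ± 12.2 CPM (SD over the 4 libraries of each group), and the fitted log2 change was -0.40 ± 0.06 (SE). OIP5, a gene of centromere assembly, stood at 13.2 ± 1.10 CPM in siNTC5 and 12.8 ± 1.02 CPM in siHNRNPK, and its fitted log2 change was -0.05 ± 0.10 (SE; edgeR adjusted p 0.645). The strand setting of the counting is not given in the sources used here, so reads of the overlapping stretch cannot be assigned with certainty.

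TUG1 had the largest rise of the group. It is a widely expressed RNA that has been linked to Polycomb repression and to colon cancer, and RefSeq lists the gene as protein-coding. Its gene spans chr22:30969265-30979395. TUG1 stood at 149, 162, 140 and 149 CPM in the controls and at 352, 357, 323 and 331 CPM in the knockdown. The groups lay far apart, and the Ligation libraries were slightly lower than the TruSeq libraries in the knockdown. Means were 150 ± 9.05 and 340.4 ± 16.3 CPM (SD, n = 4 each), or 2.27 times control, and the log2 fold change was 1.18 ± 0.04 (SE).

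NEAT1 was higher in the knockdown too. It spans chr11:65422798-65445540, on the same arm as MALAT1, and its gene contains MIR612. NEAT1 stood at 494, 521, 660 and 652 CPM in siNTC5 replicates 1 to 4 and at 904, 901, 950 and 940 CPM in siHNRNPK replicates 1 to 4. The groups did not overlap, and the TruSeq controls were the lowest libraries of all. Means were 582 ± 86.4 and 924 ± 24.9 CPM (SD, n = 4 each), or 1.59 times control, with a log2 fold change of 0.68 ± 0.05 (SE). This count per gene does not separate the isoforms, and the kits select polyadenylated RNA, such as the short isoform. How much of the long isoform it holds was not measured.

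CCAT1 and PVT1 lie in the colon cancer risk region of chromosome 8 around MYC, at chr8:127207382-127219268 and chr8:127794524-128101256. CCAT1, raised in colon tumours, stood at 12.2, 14.1, 10.4 and 8.37 CPM in the controls and at 18.2, 16.4, 15.6 and 15.6 CPM in the knockdown. The controls spread widely, and the Ligation controls were the lowest libraries. CCAT1 means were 11.2 ± 2.44 and 16.4 ± 1.23 CPM (SD over the 4 libraries of each group), and the fitted log2 change was 0.55 ± 0.11 (SE). PVT1, often amplified in tumours, hosts several microRNAs. PVT1 stood at 68.9, 68.1, 63.7 and 60.9 CPM in the controls and at 97.0, 95.4, 86.2 and 91.4 CPM in the knockdown. The groups did not overlap for either RNA. PVT1 means were 65.4 ± 3.76 and 92.5 ± 4.83 CPM (SD over the 4 libraries of each group), and the fitted log2 change was 0.50 ± 0.05 (SE). Of the microRNA genes inside PVT1, MIR1204 to MIR1207 had at most 14 counts in a library and were not tested.

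CYTOR and LINC-PINT overlapped between the groups. CYTOR, an RNA linked to cell migration and epithelial tumours, spans chr2:87455427-87521518. It stood at 8.36, 8.56, 9.13 and 7.72 CPM in the controls and at 9.69, 9.95, 7.92 and 9.48 CPM in the knockdown, where 1 library lay within the range of the controls. The log2 fold change was 0.14 ± 0.11 (SE). CYTOR has a near-identical copy, MIR4435-2HG, and the handling of reads that match both is not given in the sources used here. MIR4435-2HG stood at 20.9 ± 2.06 CPM in siNTC5 and 28.6 ± 2.55 CPM in siHNRNPK, and its fitted log2 change was 0.44 ± 0.09 (SE; edgeR adjusted p 0.00013). With the counts of both genes summed the log2 value was 0.36 ± 0.07 (SE; edgeR adjusted p 0.00026), between the values of the separate genes. The sum thus passed the threshold, which CYTOR alone did not (edgeR adjusted p 0.276).

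LINC-PINT, a p53-induced RNA, spans chr7:130877562-131109925. It stood at 9.19, 10.2, 9.26 and 8.59 CPM in the controls and at 9.76, 10.8, 7.84 and 9.89 CPM in the knockdown. The lowest and the highest of the 8 libraries were both knockdown libraries, and the log2 fold change was 0.04 ± 0.11 (SE). LINC00513, a long noncoding RNA whose gene lies inside the LINC-PINT span, went another way. LINC00513 stood between 8.13 and 11.3 CPM in siNTC5 and between 0.49 and 2.505 CPM in siHNRNPK. Its means were 9.54 ± 1.34 and 1.34 ± 0.85 CPM (SD over the 4 libraries of each group), and the fitted log2 change was -2.80 ± 0.22 (SE; edgeR adjusted p 1.58e-09). LINC00513 was named because it overlaps a listed RNA, by a rule that did not use its value.

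MIR22HG, the host RNA of the microRNA miR-22, spans chr17:1711504-1716210. It was listed at 0 in all 8 libraries of the knockdown comparison. In the Scramble tables it had 167 and 168 counts, at 3.37 and 3.68 CPM. The zeros cannot be read as absence of the RNA. Of 25527 names shared by the tables, 184 (0.721%) were at 0 in all 8 libraries and at 100 counts or more in both Scramble libraries, and 2 names were the other way round. Genes that most cells use are among them. DDX24, an RNA helicase, had 11000 and 10755 counts in the Scramble libraries, and SLC25A6, a mitochondrial ADP/ATP carrier, had 37970 and 32748. A fitted fold for MIR22HG would rest on these zeros and is not given.

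Of the 10 RNAs, 9 passed the filter on low counts in the knockdown fit, and 7 of these had an adjusted p under 0.05. Over all 13933 tested genes 71.5% were called, so a share of 7 in 9 lies near the background, and since the RNAs were chosen with this contrast known nothing is read from it. The 4 higher were TUG1, NEAT1, CCAT1 and PVT1, where 35.5% of all genes were called higher. The 3 lower were UCA1, MALAT1 and OIP5-AS1, where 36.1% of all genes were called lower. The median log2 fold change was 0.14 over the 9 RNAs and -0.004 over all genes.

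Because the kits split both groups evenly, it could be asked whether each RNA's level and its knockdown difference depended on the kit. The rule of choice did not name these measures, but they come from the same 8 libraries, whose counts were known. In the kit comparison, NEAT1 was higher in Ligation than in TruSeq libraries, by 0.22 ± 0.05 (log2, SE, adjusted p 0.00421 in edgeR), and CCAT1 was lower, by a log2 difference of -0.32 ± 0.11 (SE, adjusted p 0.0284). Kit and library round cannot be told apart. CCAT1 lost this call, with adjusted p between 0.0517 and 0.150, when siNTC5 replicate 2, 3 or 4 or siHNRNPK replicate 1 was left out. For TUG1 the kit difference was -0.11 ± 0.04 (SE, adjusted p 0.0534) and for PVT1 -0.13 ± 0.05 (SE, adjusted p 0.0571). TUG1 passed the threshold under size factors of DESeq2 (adjusted p 0.0498), with no filter (0.0319) and without siNTC5 replicate 1 (0.0178). UCA1, at -0.13 ± 0.07 (SE, adjusted p 0.225), passed with no filter (-0.14, adjusted p 0.026) and without siNTC5 replicate 2 (-0.20, adjusted p 0.0477). The kit was called for 2 of 9 RNAs, against 28.5% of all tested genes. HNRNPK was also lower in Ligation libraries, with a log2 difference of -0.38 ± 0.06 (SE, adjusted p 0.000145 in edgeR).

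UCA1 was the RNA of this group whose knockdown difference was called different between the kits. Within TruSeq libraries its mean was 280 CPM in siNTC5 and 93.8 CPM in siHNRNPK, or 33.5% of control. Within Ligation libraries it was 298 and 70.5 CPM, or 23.6% of control. The control values of the kits lay close together, and the knockdown values did not overlap between kits. The within-kit log2 fold changes were -1.57 ± 0.07 (SE) for TruSeq and -2.09 ± 0.06 (SE) for Ligation, with 2 libraries against 2 in each. The interaction of kit and treatment was -0.51 ± 0.09 (log2, SE, adjusted p 0.0205 in edgeR), 1 of the 18 genes (0.129% of those tested) that were called. The call was lost, with adjusted p between 0.0639 and 0.242, when any 1 siHNRNPK library or siNTC5 replicate 3 or 4 was left out, and the value then lay between -0.56 and -0.45. HNRNPK moved with it: HNRNPK stood at 24.9% of control within TruSeq and 19.6% within Ligation, with an interaction of -0.34 ± 0.08 (SE, adjusted p 0.100 in edgeR). With no filter on low counts the HNRNPK interaction passed the threshold (-0.36, adjusted p 0.000847 in edgeR). It also passed without siNTC5 replicate 1 (-0.34) or replicate 2 (-0.39), fits that leave 1 library in an arm. Over all runs it lay between -0.43 and -0.25. The part of the depth of knockdown in the UCA1 difference was not tested.

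For NEAT1 the knockdown difference was 0.84 ± 0.05 (log2, SE) within TruSeq and 0.52 ± 0.05 within Ligation. Its interaction of -0.30 ± 0.07 (SE, adjusted p 0.0949 in edgeR) did not pass the threshold, but it did without siNTC5 replicate 1 (adjusted p 0.0108) or replicate 2 (adjusted p 0.000241), and with no filter on low counts (adjusted p 0.00199). CCAT1 went the other way, with 0.40 ± 0.14 within TruSeq and 0.73 ± 0.13 within Ligation, and an interaction of 0.35 ± 0.20 (SE, adjusted p 0.511). TUG1 had nearly the same value in both kits, 1.19 ± 0.06 and 1.17 ± 0.05. For the 6 RNAs other than UCA1, NEAT1 and CCAT1 that were tested, the adjusted p of the interaction was between 0.665 and 0.984. An interaction that misses the threshold does not show that the kits gave the same difference.

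**Figure D2:**
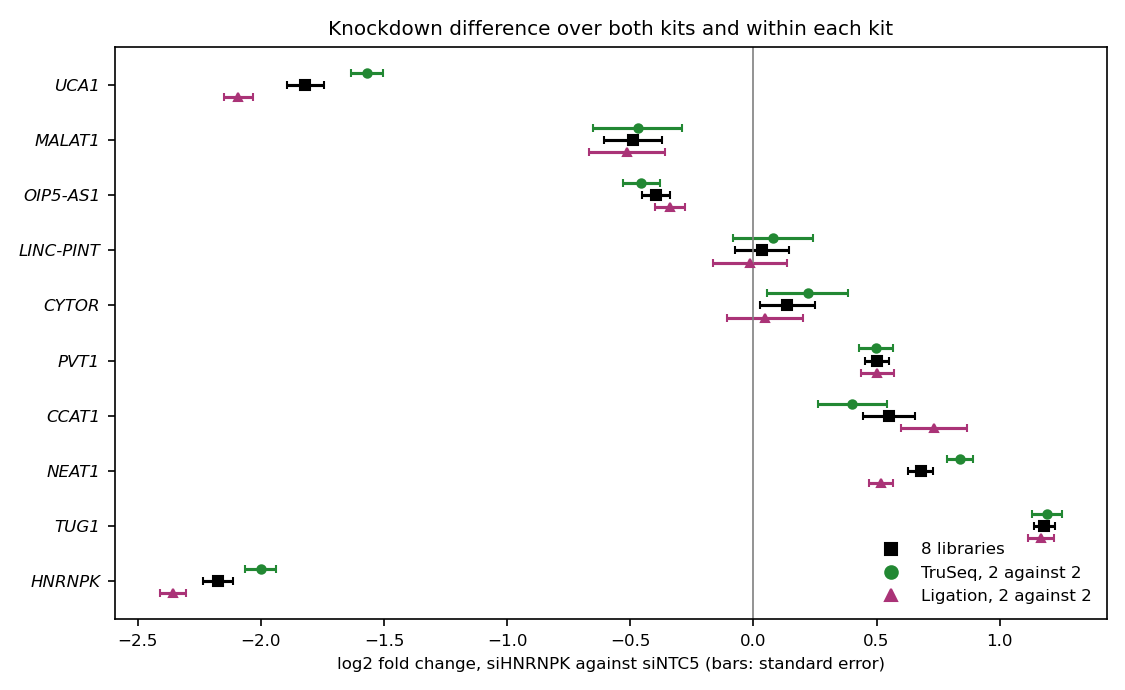
Log2 fold change of siHNRNPK against siNTC5 (horizontal axis, bars are standard errors) for 9 long noncoding RNAs and HNRNPK in all 8 libraries (black squares), within TruSeq (green circles) and within Ligation libraries (purple triangles). UCA1 lies at -1.57 within TruSeq and -2.09 within Ligation, whereas TUG1 lies at 1.19 and 1.17.

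The Scramble and siNTC5 libraries are both nontargeting controls, and their comparison measured how far these RNAs differ between control sets. The library name, the RNA purification kit, the depth and the count table all differ between the sets and cannot be told apart. The siNTC5 libraries also serve as controls of the knockdown comparison, so both comparisons share them. Values in this paragraph and the next are CPM normalised over all 10 libraries on the shared names. NEAT1 stood at 75.6 and 71.5 CPM in the Scramble libraries, and at 493, 521, 665 and 656 CPM in siNTC5. The Scramble libraries were far below every other library, at 12.6% of the siNTC5 mean, with a log2 difference of -2.84 ± 0.06 (SE, adjusted p 5.8e-13 in edgeR). MALAT1 stood at 54.4 and 47.8 CPM in the Scramble libraries, against 8.36 to 11.8 CPM in siNTC5 and 6.38 to 7.81 CPM in siHNRNPK. The Scramble mean was 5.27 times that of siNTC5, a log2 difference of 2.48 ± 0.12 (SE, adjusted p 1.67e-09). These neighbours on chromosome 11 thus differed between the control sets in opposite directions.

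OIP5-AS1 stood at 58.2 and 61.4 CPM in the Scramble libraries and was lower than in siNTC5 by a log2 difference of -1.30 ± 0.06 (SE, adjusted p 1.51e-09 in edgeR). TUG1 stood at 75.8 and 83.3 CPM, with a log2 difference of -1.03 ± 0.07 (SE, adjusted p 4.65e-08). LINC-PINT stood at 5.95 and 5.69 CPM, with a log2 difference of -0.80 ± 0.13 (SE, adjusted p 0.000168). In all 3 the Scramble libraries lay below every siNTC5 library. CYTOR was higher, at 12.3 and 11.9 CPM, with a log2 difference of 0.46 ± 0.12 (SE, adjusted p 0.00542 in edgeR). PVT1, at 63.4 and 64.4 CPM, lay within the siNTC5 range, and its difference of -0.16 ± 0.06 (SE, adjusted p 0.0424) with kit in the model missed the threshold in 10 of 11 alternatives. UCA1 stood at 320.5 and 310.4 CPM, just above the 269 to 302 CPM of siNTC5, with a log2 difference of 0.12 ± 0.06 (SE, adjusted p 0.0843). UCA1 passed the threshold under size factors of DESeq2 (adjusted p 0.0497), with no filter (0.0221) and without siNTC5 replicate 1 (0.0136). UCA1 was nearer to 0 under upper-quartile scaling (0.03, adjusted p 0.62) and with no kit term (0.07, adjusted p 0.37). CCAT1, at 13.5 and 12.7 CPM, lay within the siNTC5 range, with a log2 difference of -0.07 ± 0.13 (SE, adjusted p 0.634).

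MIR22HG left out, 7 of the other 9 RNAs were called between the control sets, 2 higher and 5 lower in Scramble. Over all 14263 genes tested there, 68.6% were called, 35.1% higher and 33.5% lower, so the share of the RNAs called lies near the background. For OIP5-AS1, CYTOR and LINC-PINT the place of siHNRNPK depended on which control set was used. OIP5-AS1 at 95.9 to 126 CPM in siHNRNPK was below every siNTC5 library and above both Scramble libraries. CYTOR was lower in every siHNRNPK library than in both Scramble libraries, and LINC-PINT was higher, although both overlapped with siNTC5. UCA1 and MALAT1 were lower, and TUG1, NEAT1, CCAT1 and PVT1 were higher, in every siHNRNPK library than in every library of either control set. When the Scramble libraries were added to the controls of the knockdown fit, the log2 fold change was -1.84 ± 0.10 for UCA1, 1.42 ± 0.22 for TUG1, 0.55 ± 0.11 for CCAT1 and 0.53 ± 0.05 for PVT1. It was -1.47 ± 0.68 for MALAT1, 1.18 ± 0.58 for NEAT1 and -0.11 ± 0.28 for OIP5-AS1, with much wider errors than against siNTC5 alone, and these 3 no longer passed the threshold. As with siNTC5 alone, these values are a description of a contrast known when the RNAs were chosen.

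**Figure D3:**
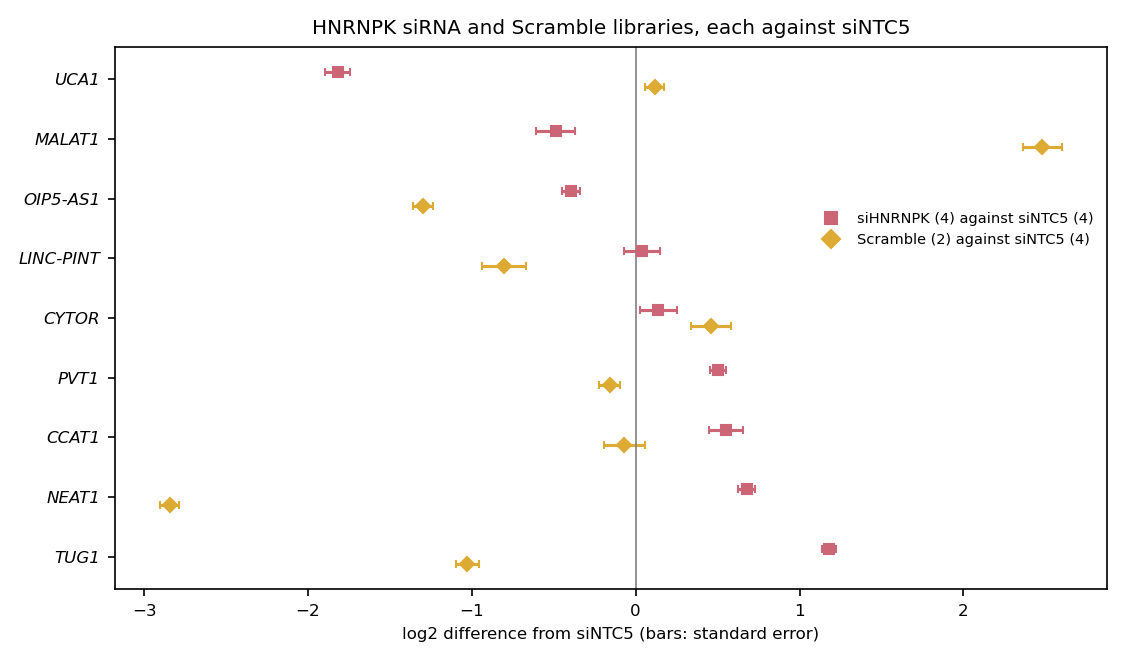
Log2 difference from the siNTC5 libraries (horizontal axis, bars are standard errors) of siHNRNPK (red squares) and Scramble (yellow diamonds) for 9 long noncoding RNAs; both comparisons share the 4 siNTC5 libraries. Scramble differs from siNTC5 by -2.84 for NEAT1 and 2.48 for MALAT1, and by 0.12 for UCA1.

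The ChIP domain lists give the chromatin in which these genes lie. TUG1 was the single RNA of the 10 whose gene lay in any of the 7 lists, which cover lamin B1, H3K9me3 and H3K27me3 in control and knockdown cells and H3K9me2 in control cells. H3K9me3 is a mark of constitutive heterochromatin, also laid over some transcribed genes. The whole TUG1 gene, its start included, lay in an H3K9me3 domain of 90 kb in control cells (chr22:30945001-31035000, deposited score 0.936). In siHNRNPK cells it lay in one of 110 kb (chr22:30940001-31050000, deposited score 1.04). The unit of the authors' score is not given in the sources used here, and with 1 list per antibody and siRNA the difference has no replicate check. Of tested genes with a RefSeq position, 2.94% lay at least 50% inside H3K9me3 domains in control cells and 5.90% in siHNRNPK cells. For tested long noncoding RNAs the shares were 4.72% and 9.44%. H3K27me3 domains held 9.84% of tested genes in control and 8.41% in siHNRNPK cells, and 15.1% and 12.4% of long noncoding RNAs. Lamin B1 domains held 2.96% and 2.57% of tested genes, and H3K9me2 domains held 1.20% in control cells. With such low shares and 10 RNAs, nothing is read from the absence of the others from the lists. LINC-PINT lay 22.6 kb from the nearest H3K9me3 domain in control cells and 7.56 kb in siHNRNPK cells, and CCAT1 lay 60.7 and 27.4 kb away. UCA1 lay 18.9 kb from an H3K27me3 domain in control cells and 23.9 kb in siHNRNPK cells. MIR22HG lay 1157 kb from the nearest lamin B1 domain in control cells and 31.5 kb in siHNRNPK cells. All the other RNAs lay farther from a lamin B1 domain in siHNRNPK than in control cells, such as LINC-PINT at 585 and 3598 kb. The lists held 880 lamin B1 domains in control and 730 in siHNRNPK cells, and 895 and 1996 H3K9me3 domains. The part of these numbers in the distances was not tested.

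Tested protein-coding genes nearest to the RNAs were set beside them. MORC2, a chromatin regulator whose gene lies 0.491 kb from that of TUG1, rose by 0.17 ± 0.05 (log2, SE, adjusted p 0.0074 in edgeR), a small value beside the 1.18 of TUG1. MKLN1, at 0.169 kb from LINC-PINT, rose by 0.29 ± 0.05 (SE, adjusted p 1.34e-05), and CHP1, at 0.81 kb from OIP5-AS1, rose by 0.29 ± 0.05 (SE, adjusted p 3.42e-05) although its groups overlapped. FRMD8, at 9.27 kb from NEAT1, rose by 0.50 ± 0.06 (SE, adjusted p 1.12e-06). The UCA1 neighbours are fatty acid hydroxylases of the CYP4F cluster. CYP4F12 rose from 3.99 ± 0.43 to 6.63 ± 1.34 CPM (SD, n = 4 each), and CYP4F2 fell from 3.05 ± 1.33 to 1.69 ± 0.60 CPM with overlapping groups (adjusted p 0.000133 and 0.029 in edgeR). WDR81, at 0.313 kb from MIR22HG, fell by 0.84 ± 0.18 (log2, SE, adjusted p 0.000425). MYC, the gene next to PVT1, stood at a log2 value of 0.13 ± 0.04 (SE, adjusted p 0.0134) with overlapping groups.

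Genes with a pattern most like that of UCA1 were found by Pearson's r of log2(CPM + 0.5) over the 8 libraries among 9997 genes with an average log2 CPM of at least 3. The highest were SELENON with r = 0.999 and SMG6, PHKA2, BCKDHA and PEG10 with r = 0.998. The libraries share their treatment and kit, so the values describe the same steps. SELENON, a selenoprotein of the endoplasmic reticulum, went from 215 ± 1.94 to 70.5 ± 9.65 CPM (SD, n = 4 each). BCKDHA, a subunit of branched-chain keto acid dehydrogenase, went from 33.1 ± 3.59 to 3.86 ± 0.87 CPM. SMG6, a nuclease of nonsense-mediated decay, went from 39.6 ± 1.12 to 23.2 ± 1.50 CPM. Their kit interactions (log2) were -0.34 for SELENON, -0.20 for SMG6, -0.39 for PHKA2, -0.69 for BCKDHA and -0.55 for PEG10. None was called (adjusted p 0.100 to 0.583 in edgeR). All had the sign of that of UCA1. Genes picked for tracking UCA1 over these same 8 libraries are bound to lean that way, so nothing is read from the sign.

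The proteins known to make, hold or remove such RNAs were counted in the knockdown fit by lists that name no listed RNA. The counts that rose or fell are of genes called at an adjusted p under 0.05. Over all 13933 tested genes 35.5% were called higher and 36.1% lower. Of 18 tested paraspeckle proteins 6 (33.3%) rose and 8 (44.4%) fell, with a median log2 fold change of -0.08. MATR3 rose from 466 ± 9.91 to 807 ± 46.1 CPM (SD, n = 4 each; log2 0.79) and SFPQ from 432 ± 35.1 to 613 ± 53.4 CPM (log2 0.50). RBM14, which paraspeckles need to form, fell from 84.9 ± 3.04 to 50.6 ± 4.75 CPM, and SMARCA4, a chromatin remodeller, fell from 196 ± 17.8 to 148 ± 15.5 CPM. The core proteins NONO (log2 -0.08 ± 0.04, SE) and PSPC1 (-0.05 ± 0.06) did not pass the test. CPSF6, whose partner in 3′ end processing is NUDT21, fell by 0.19 ± 0.04 (log2, SE, adjusted p 0.00026 in edgeR), and NUDT21 stood at 0.04 ± 0.04 (adjusted p 0.408). CPSF6 and NUDT21 together favour the short NEAT1 isoform.

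Of 19 tested genes of nuclear RNA decay 11 (57.9%) rose and 1 (5.26%) fell, with a median of 0.14. In all 63.2% of them were called, against 71.5% of all tested genes. ZCCHC8, of the nuclear exosome targeting complex, rose from 43.9 ± 3.88 to 73.8 ± 2.44 CPM (SD, n = 4 each), and DIS3, an exosome nuclease, rose from 140 ± 7.75 to 230 ± 17.8 CPM. The one that fell was EXOSC3 (log2 -0.28 ± 0.08, SE), with overlapping groups. Of 10 RNase P subunits, the enzyme that cuts the end of MALAT1, 4 (40.0%) rose and 5 (50.0%) fell. RPP14 rose from 10.8 ± 1.62 to 26.5 ± 0.89 CPM and RPP25 fell from 6.65 ± 0.50 to 3.50 ± 0.92 CPM. Of 19 cleavage and polyadenylation factors 6 (31.6%) rose and 4 (21.1%) fell. SYMPK, a scaffold of that complex, fell from 236 ± 13.0 to 140 ± 10.8 CPM. Of 18 nuclear RNA export genes 12 (66.7%) rose and 4 (22.2%) fell, with a median of 0.25. NXF1, the main mRNA export receptor, rose from 81.5 ± 8.15 to 116 ± 7.93 CPM, and its relative NXF3 rose from 0.15 ± 0.12 to 3.35 ± 0.38 CPM. THOC3, of the THO complex, fell from 32.9 ± 1.86 to 20.3 ± 0.30 CPM.

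Among 43 other tested long noncoding RNAs 20 (46.5%) rose and 10 (23.3%) fell, with a median log2 fold change of 0.28. MIR210HG, a hypoxia-induced host RNA, fell from 8.36 ± 0.64 to 1.39 ± 0.48 CPM (SD over 4 libraries), and ELFN1-AS1, an RNA of colon tumours, fell from 10.9 ± 1.42 to 4.88 ± 0.69 CPM. HOTAIR, a long noncoding RNA of the HOXC cluster, rose from 0.48 ± 0.24 to 1.46 ± 0.40 CPM. MIR503HG rose from 0.46 ± 0.14 to 1.66 ± 0.60 CPM. Of all 720 tested RefSeq long noncoding RNAs 270 (37.5%) rose and 155 (21.5%) fell, with a median of 0.19. In all 425 of the 720 were called, against 71.5% of all genes, whose median was -0.004. No test compared these lists with other genes.

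**Figure D4:**
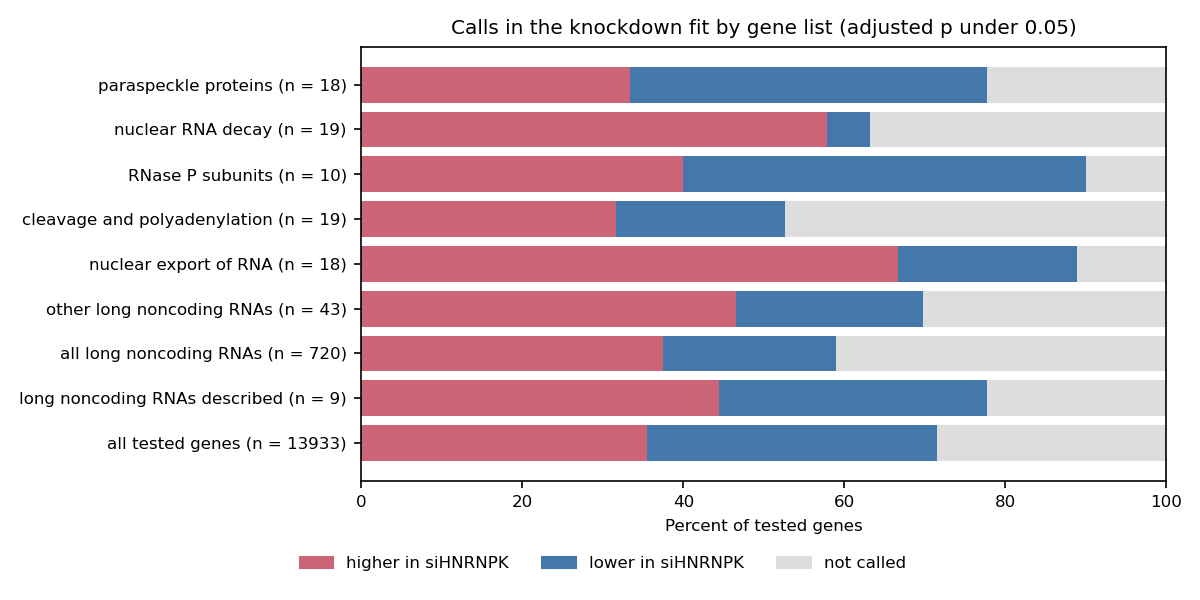
Percent of tested genes (horizontal axis) called higher (red), lower (blue) or not called (gray) in siHNRNPK against siNTC5 at an adjusted p under 0.05, by gene list, with the number tested in parentheses. Nuclear export and nuclear RNA decay have more genes higher than lower (12 against 4 and 11 against 1), and all tested genes are near evenly split.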

How the data were processed

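RNA was measured by sequencing in 10 libraries of HCT116 cells. The deposited values are raw counts per gene symbol, 1 table of 8 libraries and 2 Scramble tables. Per the submitters' processing notes, STAR 2.7.1a and featureCounts were used, with Subread 2.0.6 for the 8 libraries, on hg38; hg19 and hg38 are both listed for Scramble. Annotation and strand setting are not given in the sources used here. The 7 deposited domain lists carry a score per domain by the authors, whose meaning is not stated.

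Counts were filtered with filterByExpr by treatment, normalised by TMM and tested with edgeR 4.0.16 (quasi-likelihood test, limma 3.58.1, R 4.3.3) over all genes, with kit and treatment in the model and Benjamini-Hochberg adjustment at 0.05. The kit interaction and the Scramble comparison (2 against 4 libraries, shared names) used the same test. SE is the absolute log2 fold change divided by the square root of F. Libraries with the same replicate number share a kit. Across genes, their deviations from the group means correlated by 0.1004, 0.425, 0.337 and 0.265 for numbers 1 to 4. Once kit was removed the correlations were -0.191, -0.156, -0.281 and -0.252. Fitting kit and treatment to 8 libraries by itself makes such residuals correlate negatively. These latter values therefore cannot show whether replicates with the same number were paired. Positions and promoters came from RefSeq GRCh38.p14. The steps were tested on simulated counts. Tables and plots were made in Python 3.11.15.

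Named genes were the 10 RNAs, HNRNPK, the 5 genes most like UCA1, up to 2 risers and 2 fallers per list, the nearest tested protein-coding neighbours, and genes overlapping the RNAs or near-identical to them. NONO, PSPC1, CPSF6 and NUDT21, and DDX24 and SLC25A6, were named after their values were seen. Members and lists were chosen with earlier results of these data known. Alternatives were DESeq2 1.42.0 (its test and its size factors), upper-quartile scaling, other filters, other model terms, other controls, single kits and leaving out libraries in turn.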

Additional observations from a re-analysis of the deposited data

Results flagged for a closer look

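UCA1 had a knockdown difference that differed between the library kits, with an interaction of -0.507 (log2, Ligation minus TruSeq), tested by the interaction term in edgeR (adjusted p 0.0205). UCA1 was lower in 2 of 2 knockdown libraries in each kit, and the kits differed in how far. The highest adjusted p was 0.242, when siHNRNPK replicate 1 was left out. In the 20 groups of 4 libraries examined, no library stood apart from the rest of its group by Dixon's 95% criterion, by which chance alone would single out about 1 group in 20.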

How the results depend on the processing

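The directions of the 7 RNAs called in the knockdown fit did not change in any alternative run. With no filter, 239 genes and 2 of the RNAs were called for the kit interaction, and 4 RNAs for kit. Leaving out single libraries gave 6 to 598 genes and 0 to 2 RNAs for the interaction, and 1 to 3 RNAs for kit; a left-out library leaves an arm of 1, assumed to vary like the others. The UCA1 interaction then ran from -0.58 to -0.45, its kit difference from -0.20 to -0.064 (-0.14 with no filter), and its Scramble difference from 0.057 to 0.17 (0.13 under size factors of DESeq2, 0.15 with no filter). Adding Scramble to the controls left 4 RNAs called and put CYTOR at -0.0148. CYTOR summed with MIR4435-2HG passed the threshold in the knockdown fit. LINC-PINT in the knockdown was -0.0008 with no filter, -0.0141 in Ligation libraries, and -0.0242 to 0.0924 on leaving out libraries. CCAT1 in Scramble was 0.15 with no kit term and -0.17 to 0.0454 on leaving out libraries. Interactions that changed sign on leaving out libraries ran from -0.20 to 0.14 for MALAT1, -0.0326 to 0.0566 for PVT1, -0.0903 to 0.0283 for TUG1 and -0.26 to 0.0718 for LINC-PINT; the cause was not tested. A replicate block in place of kit called 9872 genes in the knockdown fit and changed no call of the RNAs. MALAT1, CYTOR and LINC-PINT rest on few counts, 85 to 245 in the 8 libraries, and CCAT1 on 153 to 337.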
